A study of Mus musculus with 8 samples.

Results

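The genes described here are 10 genes of the early transcriptional response, namely Fos, Fosb, Fosl1, Fosl2, Jun, Junb, Jund, Atf3, Egr1 and Ier3, measured in an immortalized line of mouse pancreatic stellate cells (PSCs). They were chosen by name, with earlier results of these data known. All 10 were found among the 12160 genes of the count table and passed the filter on low counts in every comparison. PSCs were seeded in growth factor reduced Matrigel at 20000 cells according to the sample labels, while the study's methods give a larger number, kept in growth medium for 4 days and then treated for 4 days. The treatments were medium conditioned by KPC organoids carrying a short hairpin RNA against Brca2 (shBrca2-CM, n = 3), medium conditioned by KPC organoids carrying a control hairpin (shControl-CM, n = 3) and a control medium (n = 2). KPC organoids are 3D cultures of mouse pancreatic tumour cells, so the hairpins were in the cells that conditioned the medium and not in the PSCs. The control medium is growth medium (DMEM) in the sample titles, in the study's results and figure legends and in its methods of expression analysis. It is medium conditioned by the PSCs themselves in the treatment label and in the study's methods of culture. Which of the 2 was used could not be settled. Each library is 1 dome of the same cell line, so the p-values measure the spread between domes of this line. The edgeR test takes part of its estimate of this spread from all genes, to a degree that differs between comparisons. Adjusted p-values of different comparisons are therefore not comparable in size.

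AP-1 is a family of transcription factor dimers that share a basic leucine zipper (bZIP) for pairing and DNA binding. Fos proteins bind DNA only as partners of Jun proteins, whereas Jun proteins can also pair with each other and with ATF proteins such as ATF3. Many of these genes are immediate early genes, switched on within minutes by MAP kinases, cytokines or stress without new protein synthesis, and some of them stay raised under sustained signals. EGR1 is a zinc finger factor of the same response. IER3 is not a transcription factor but a short-lived membrane-associated protein linked to cell survival and to control of ERK and NF-kB signalling, so the description of the genes as transcription factors holds for 9 of the 10. In fibroblasts, AP-1 drives genes of matrix turnover and inflammation.

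Reads were taken from the 3′ ends of mRNA, and the total count on genes ranged from 655996 to 1095534 over the shBrca2-CM libraries, from 1093609 to 1624392 over the shControl-CM libraries and from 4623846 to 5476988 over the control libraries. Levels are given as CPM (counts scaled to library size) after TMM scaling, which adjusts library sizes so that a few abundant genes do not shift all others. A floor of 3 counts corresponded to 2.66 to 4.34 CPM with shBrca2-CM and to 0.521 to 0.645 CPM with control medium. Floors and counting intervals cover counting error only. All 12 fibroblast and stellate cell markers had counts in every group, summing to 4980 to 7760 CPM in the 8 libraries. Of 10 epithelial markers, 6 were not in the table, including Epcam, Krt8 and Cdh1, and the other 4 summed to 76.7 to 125 CPM with shBrca2-CM, 72.5 to 82.9 CPM with shControl-CM and 51.2 to 56.1 CPM with control medium. Of 7 immune markers, 4 were not in the table, including Ptprc, and the other 3 summed to 23.7 to 36.0 CPM with shControl-CM, 13.0 to 26.6 CPM with shBrca2-CM and 9.46 to 11.5 CPM with control medium. Between the conditioned media, edgeR called 5 of the 12 fibroblast and stellate cell markers (41.7% of the list, against 3.13% of all genes). Pdgfra and S100a4 were higher with shBrca2-CM, and Pdpn, Dcn and Lum were lower. Krt19, 1 of the 4 epithelial markers, was higher with shBrca2-CM (log2 fold change 2.12, SE 0.52, edgeR adjusted p = 0.0632), at 5.79, 16.2 and 13.3 CPM against 2.56, 3.87 and 2.04 CPM. These came from 4, 13 and 15 counts with shBrca2-CM and from 4, 4 and 3 counts, near the floor, with shControl-CM. None of the 3 immune markers was called, with 1 at an unadjusted edgeR p under 0.05. The summed ranges of the conditioned media overlapped for each of these lists. Against control medium, 8 of the 12 fibroblast and stellate cell markers were called with shControl-CM (4 higher, 4 lower) and 9 with shBrca2-CM (5 higher, 4 lower), or 66.7% and 75% of the list against 37.1% and 37.8% of all genes. Vim, which encodes the intermediate filament protein vimentin, was at 3400 and 4110 CPM with control medium, 463, 378 and 243 CPM with shControl-CM and 574, 749 and 436 CPM with shBrca2-CM. Of the 4 epithelial markers, 2 rose and Krt19 fell with shControl-CM, and 3 rose and Krt19 fell with shBrca2-CM. Of the immune markers, Cd68 and Csf1r were higher with shControl-CM and Cd68 with shBrca2-CM than with control medium by edgeR. Endothelial markers summed to at most 3.48 CPM. The part of these markers in the results was not tested.

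Promoter sequences from RefSeq (GRCm38.p6) were found for 8 of the 10 genes, and no entry was found for Fosl1 or Egr1. The 250 bases before the transcription start are shown, 5′ to 3′ on the strand of the gene, for 3 genes that were lower with shBrca2-CM than with shControl-CM (Junb, Atf3 and Ier3) and for Fos, the classical immediate early gene, which did not pass that test. Capitals mark a match to TGACG, the core of the cyclic AMP response element bound by CREB and ATF proteins (Junb, Atf3 and Fos, in Atf3 read on the other strand), to an NF-kB site (Fos and Ier3, read on the other strand) and to the TATA box TATAAA (Fos). The Junb window lies at chr8:84978749-84978998, minus strand, the Atf3 window at chr1:191183334-191183583, minus strand, the Ier3 window at chr17:35821463-35821712, plus strand, and the Fos window at chr12:85473640-85473889, plus strand.
Junb: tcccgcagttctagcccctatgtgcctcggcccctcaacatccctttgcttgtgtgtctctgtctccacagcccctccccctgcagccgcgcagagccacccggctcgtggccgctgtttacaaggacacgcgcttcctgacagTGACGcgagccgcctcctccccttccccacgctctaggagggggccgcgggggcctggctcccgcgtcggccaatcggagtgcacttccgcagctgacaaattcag
Atf3: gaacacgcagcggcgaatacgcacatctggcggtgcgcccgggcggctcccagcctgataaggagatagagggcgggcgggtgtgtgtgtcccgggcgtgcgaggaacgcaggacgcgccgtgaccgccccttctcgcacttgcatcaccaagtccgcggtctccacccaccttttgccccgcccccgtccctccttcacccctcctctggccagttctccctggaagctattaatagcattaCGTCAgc
Ier3: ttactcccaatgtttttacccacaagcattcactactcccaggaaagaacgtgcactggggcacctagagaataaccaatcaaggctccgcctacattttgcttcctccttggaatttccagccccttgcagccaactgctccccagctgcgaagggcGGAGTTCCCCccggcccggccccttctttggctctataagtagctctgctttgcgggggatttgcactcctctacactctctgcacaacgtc
Fos: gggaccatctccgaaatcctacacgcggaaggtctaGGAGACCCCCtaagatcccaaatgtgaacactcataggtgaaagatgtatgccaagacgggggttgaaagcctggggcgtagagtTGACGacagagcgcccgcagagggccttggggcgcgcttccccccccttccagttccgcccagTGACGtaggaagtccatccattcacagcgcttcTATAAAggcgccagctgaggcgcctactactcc

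Both strands were searched. TGACG was found in 4 of the 8 promoters (Fos, Fosb, Junb and Atf3), and in 17.8% of 32851 promoters of the same length. An NF-kB site was also found in 4 of the 8 (Fos, Fosb, Fosl2 and Ier3), and in 3.90% of all promoters. The EGR site GCGNGGGCG was found in Fosb and Fosl2 and in 4.70% of all promoters, and TATAAA was found in Fos and in 12.4% of all promoters. The Fosb window, chr7:19310046-19310295, minus strand, overlaps the span of the gene, which reaches 19310118. Its TGACG and EGR matches lie inside that span. No match to the AP-1 site TGANTCA (6.75% of all promoters), the full element TGACGTCA (1.55%), which contains TGACG, or the serum response CArG box (1.47%) was found in these 8 windows. The GC content of the 8 windows was 47.6% to 68.8%, and the median of all promoters was 52.4%. These matches describe letters in a window and do not show binding.

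Between the conditioned media, which compare what the PSCs received from organoids with and without the hairpin against Brca2, 4 of the 10 genes fell with shBrca2-CM and none rose. Those that fell were Fosl1, Junb, Atf3 and Ier3. A gene was called when edgeR's quasi-likelihood test gave an adjusted p under 0.1 and the log2 fold change exceeded 0.5 in size, in genes with a mean normalised count above 5. Of the 11035 genes tested, 3.13% were called in either direction, 1.55% were called lower and 1.58% were called higher. The median log2 fold change was −0.55 over the 10 genes and 0.03 over all genes tested. Values of 5 of the 10 genes did not overlap between the media and were lower with shBrca2-CM, against 10.6% of all genes. At an unadjusted p under 0.05, 5 of the 10 genes passed, against 13.4% of all genes. The 10 genes were chosen with earlier results known, so these shares, here and against control medium, are not independent evidence. Scaling by total counts in place of TMM moved the median of all genes tested to 0.14 and the split of called genes from 174 higher and 171 lower to 250 higher and 120 lower, and the same 4 of the 10 genes were called lower. The count of 4 fell to 1 (Ier3) without shBrca2-CM replicate 2, shBrca2-CM replicate 3 or shControl-CM replicate 2. At an adjusted p under 0.05 and a log2 fold change above 1 in size it was 0.

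**Figure D1:**
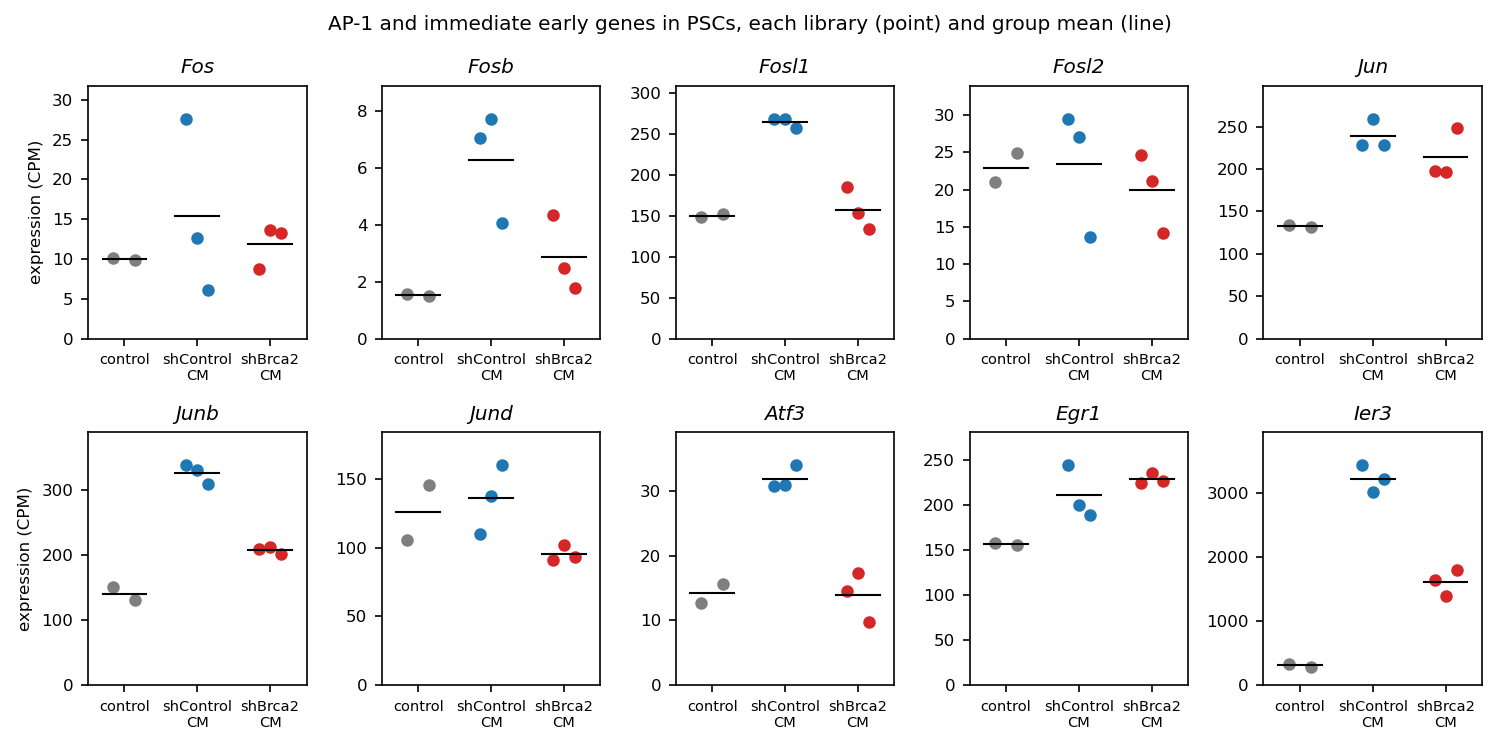
Expression in CPM (TMM, linear axes from 0) of the 10 genes in each of the 8 libraries, as points, with the group mean as a line. The shControl-CM libraries of Fosl1, Junb, Atf3 and Ier3 all lie above the other libraries, while those of Fos and Fosl2 spread across the whole range.

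Against control medium, shControl-CM raised 6 of the 10 genes (Fosb, Fosl1, Jun, Junb, Atf3 and Ier3) and lowered none. This is to be read beside a comparison in which 37.1% of 12086 genes were called and 18.2% were called higher and 18.9% lower. The median log2 fold change was 0.82 over the 10 genes and −0.10 over all genes tested, and 7 of the 10 genes had no overlap and were higher, against 26.8% of all genes. With shBrca2-CM, 4 of the 10 genes rose against control medium (Jun, Junb, Egr1 and Ier3) and none fell, where 37.8% of 12049 genes were called and 18.6% were called higher and 19.2% lower. The median was 0.42 over the 10 genes and −0.05 over all genes tested. Values of 5 of the 10 genes did not overlap and were higher, against 26.1% of all genes, and Jund did not overlap and was lower, against 31.3%. These 5 include Fosb, which had 3, 2 and 2 counts with shBrca2-CM, all at or under the floor. The comparisons with control medium share the same 2 control libraries, and each pair of comparisons shares 1 group of libraries, so they are not independent of each other.

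**Figure D2:**
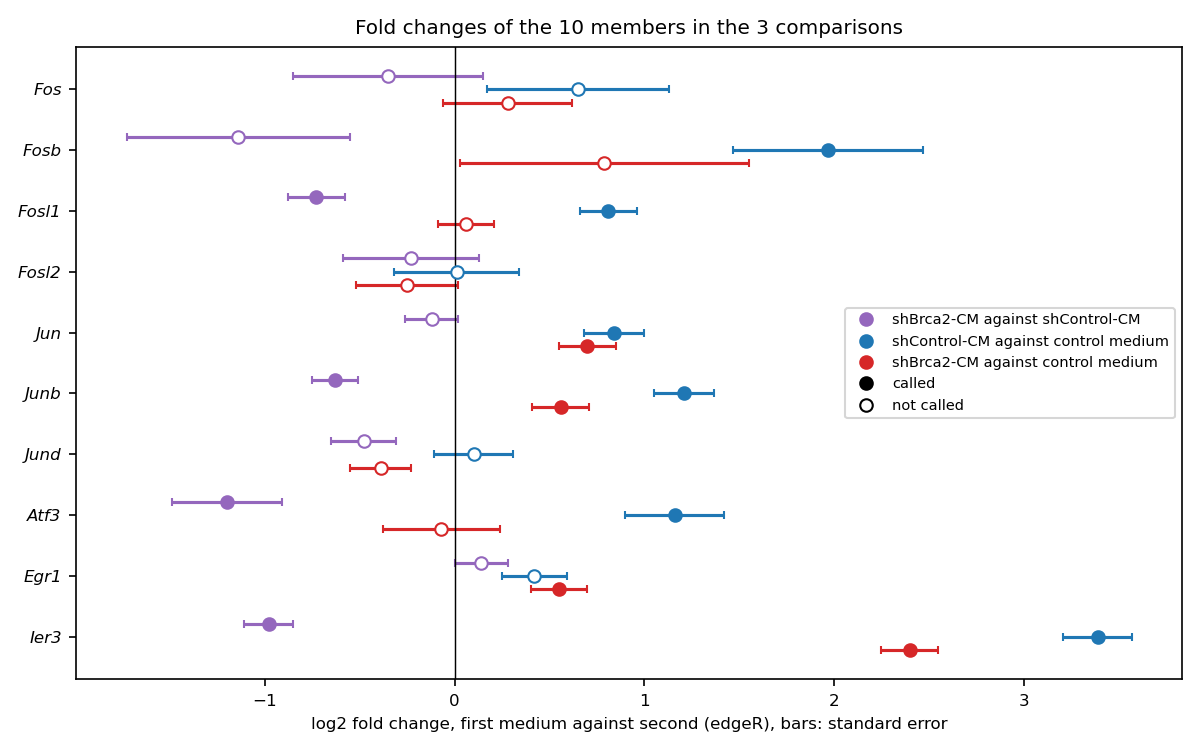
Log2 fold changes of the 10 genes in the 3 comparisons from edgeR, with bars for the standard error, filled where the gene was called and open where it was not. Fosl1, Junb, Atf3 and Ier3 are filled below 0 between the conditioned media and above 0 with shControl-CM against control medium, and Ier3 has the largest changes against control medium.

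Ier3 (chr17:35821713-35822911) was the most changed of the 10 genes against control medium. Its level was 328 and 284 CPM with control medium. With shControl-CM it was 3430, 3020 and 3220 CPM, and with shBrca2-CM it was 1640, 1390 and 1800 CPM. The groups did not overlap, the order being control medium, shBrca2-CM and then shControl-CM. Against control medium, Ier3 was 10.5-fold higher with shControl-CM (log2 fold change 3.39, SE 0.18, edgeR adjusted p = 1.29e-06) and 5.27-fold higher with shBrca2-CM (log2 fold change 2.40, SE 0.15, edgeR adjusted p = 3.58e-21). These adjusted p-values come from separate fits and do not rank the conditioned media. Between the conditioned media it was 1.97-fold lower with shBrca2-CM (log2 fold change −0.98, SE 0.13, edgeR adjusted p = 0.00144), which ranked 42 of 11035 genes by p. Leaving out each library in turn gave log2 fold changes of −1.06 to −0.88 between the conditioned media, and Ier3 was called in all 6 of these fits.

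In the Fos family, Fosl1 (chr19:5447698-5455938), which encodes FRA-1, a Fos protein that lacks the strong activation domain of c-FOS, was the member that differed between the conditioned media. Fosl1 was at 268, 268 and 257 CPM with shControl-CM and at 185, 153 and 134 CPM with shBrca2-CM. It was at 148 and 152 CPM with control medium. All 3 shControl-CM libraries were above the other 5, while the shBrca2-CM libraries lay on both sides of the control libraries. Fosl1 was 1.66-fold lower with shBrca2-CM than with shControl-CM (log2 fold change −0.73, SE 0.15, edgeR adjusted p = 0.0235) and 1.75-fold higher with shControl-CM than with control medium (log2 fold change 0.81, SE 0.15, edgeR adjusted p = 0.00304). Between shBrca2-CM and control medium the log2 fold change was 0.06, with a 95% interval of −0.25 to 0.36. The call between the conditioned media was lost without shBrca2-CM replicate 2, shBrca2-CM replicate 3 or shControl-CM replicate 2 (edgeR adjusted p = 0.169, 0.163 and 0.111), with log2 fold changes of −0.86 to −0.61 over all 6 such fits. Fosl1 overlaps Ccdc85b, which had 0 to 10 counts per library.

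Fos (chr12:85473890-85477274), which encodes c-FOS, was low and varied most within the shControl-CM group. It had 43, 13 and 9 counts with shControl-CM, at 27.6, 12.6 and 6.11 CPM. The exact Poisson 95% intervals were 19.9 to 37.1, 6.69 to 21.5 and 2.79 to 11.6 CPM, so replicate 1 lay above replicate 3 beyond counting error. Fos was at 8.68, 13.7 and 13.3 CPM with shBrca2-CM and at 10.1 and 9.89 CPM with control medium. The groups overlapped, and Fos was not called in any of the 3 comparisons. With shBrca2-CM against shControl-CM its log2 fold change was −0.35 (SE 0.50, edgeR adjusted p = 0.831) and changed sign to 0.44 without shControl-CM replicate 1. Against control medium, that of shControl-CM was 0.65 (SE 0.48, edgeR adjusted p = 0.324), and it was −0.17 without shControl-CM replicate 1 and 1.07 without shControl-CM replicate 3, when it was called (edgeR adjusted p = 0.0154).

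Fosb (chr7:19302696-19310118), whose product is a Fos protein linked to lasting stimulation, was the lowest in counts. It had 3, 2 and 2 counts with shBrca2-CM, all at or under the floor, 11, 8 and 6 with shControl-CM and 9 and 7 with control medium. In CPM this was 4.34, 2.49 and 1.78 with shBrca2-CM, 7.05, 7.73 and 4.07 with shControl-CM and 1.56 and 1.50 with control medium. Both conditioned media were above the control libraries in every library and overlapped each other. Fosb was higher with shControl-CM than with control medium (log2 fold change 1.97, SE 0.50, edgeR adjusted p = 0.0144), and the pooled counts gave a ratio of 4.00 with a 95% counting interval of 2.05 to 8.01. This call was lost without control medium replicate 1 or 2 (edgeR adjusted p = 0.126 and 0.121). The pooled ratio of shBrca2-CM to shControl-CM was 0.435, with an interval of 0.159 to 1.03, and that of shBrca2-CM to control medium was 1.74, with an interval of 0.604 to 4.46, so neither of these differences was detectable at this depth.

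Fosl2 (chr5:32136472-32157840), which encodes FRA-2, did not differ detectably between any 2 media. It was at 24.6, 21.2 and 14.2 CPM with shBrca2-CM, 29.5, 27.1 and 13.6 CPM with shControl-CM and 21.0 and 24.9 CPM with control medium. The 3 groups overlapped, with replicate 3 lowest with either conditioned medium. The 95% interval of its log2 fold change was −1.01 to 0.56 between the conditioned media, −0.71 to 0.74 with shControl-CM against control medium and −0.78 to 0.29 with shBrca2-CM against control medium.

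In the Jun family, Junb (chr8:84976909-84978748) fell and Jun was not called between the conditioned media. JUNB is a Jun protein that is often a weaker activator than c-JUN and can hold it back. Junb was at 337, 330 and 308 CPM with shControl-CM, 208, 212 and 201 CPM with shBrca2-CM and 150 and 130 CPM with control medium. The groups did not overlap, with shBrca2-CM between the other two. Junb was 1.54-fold lower with shBrca2-CM than with shControl-CM (log2 fold change −0.63, SE 0.12, edgeR adjusted p = 0.0197). Against control medium it was 2.31-fold higher with shControl-CM (log2 fold change 1.21, SE 0.16, edgeR adjusted p = 0.000449) and 1.48-fold higher with shBrca2-CM (log2 fold change 0.56, SE 0.15, edgeR adjusted p = 0.00156). The call between the conditioned media was lost without shBrca2-CM replicate 2, shBrca2-CM replicate 3 or shControl-CM replicate 2 (edgeR adjusted p = 0.122, 0.132 and 0.109), with log2 fold changes of −0.68 to −0.60 over all 6 such fits. That of shBrca2-CM against control medium was lost without control medium replicate 2 and with libraries thinned to the smallest total, where the log2 fold change of 0.47 was under the threshold in both.

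Jun (chr4:95049036-95052222), which encodes c-JUN, rose with either conditioned medium. It was at 228, 259 and 228 CPM with shControl-CM, 198, 197 and 248 CPM with shBrca2-CM and 134 and 132 CPM with control medium. Every conditioned medium library was above both control libraries, and the conditioned media overlapped. Jun was 1.79-fold higher with shControl-CM than with control medium (log2 fold change 0.84, SE 0.16, edgeR adjusted p = 0.00316) and 1.63-fold higher with shBrca2-CM (log2 fold change 0.70, SE 0.15, edgeR adjusted p = 0.000115). Between the conditioned media the log2 fold change was −0.12, with a 95% interval of −0.43 to 0.18 (edgeR adjusted p = 0.776). Jun was called against control medium in all 5 fits that left out 1 library, with either conditioned medium.

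Jund (chr8:70697739-70700616), the Jun gene that is usually expressed without a stimulus, was not called in any comparison. It was at 110, 138 and 160 CPM with shControl-CM, 91.1, 102 and 93.2 CPM with shBrca2-CM and 106 and 146 CPM with control medium. The shBrca2-CM libraries were below all others, and the shControl-CM and control libraries overlapped. The log2 fold change of shBrca2-CM was −0.48 against shControl-CM (SE 0.17, edgeR adjusted p = 0.214) and −0.39 against control medium (SE 0.16, edgeR adjusted p = 0.0491), where it was under the fold threshold. It was called lower between the conditioned media without shControl-CM replicate 1 (log2 fold change −0.64, edgeR adjusted p = 0.0259) and lower than control medium without control medium replicate 1 (log2 fold change −0.61, edgeR adjusted p = 0.00342).

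**Figure D3:**
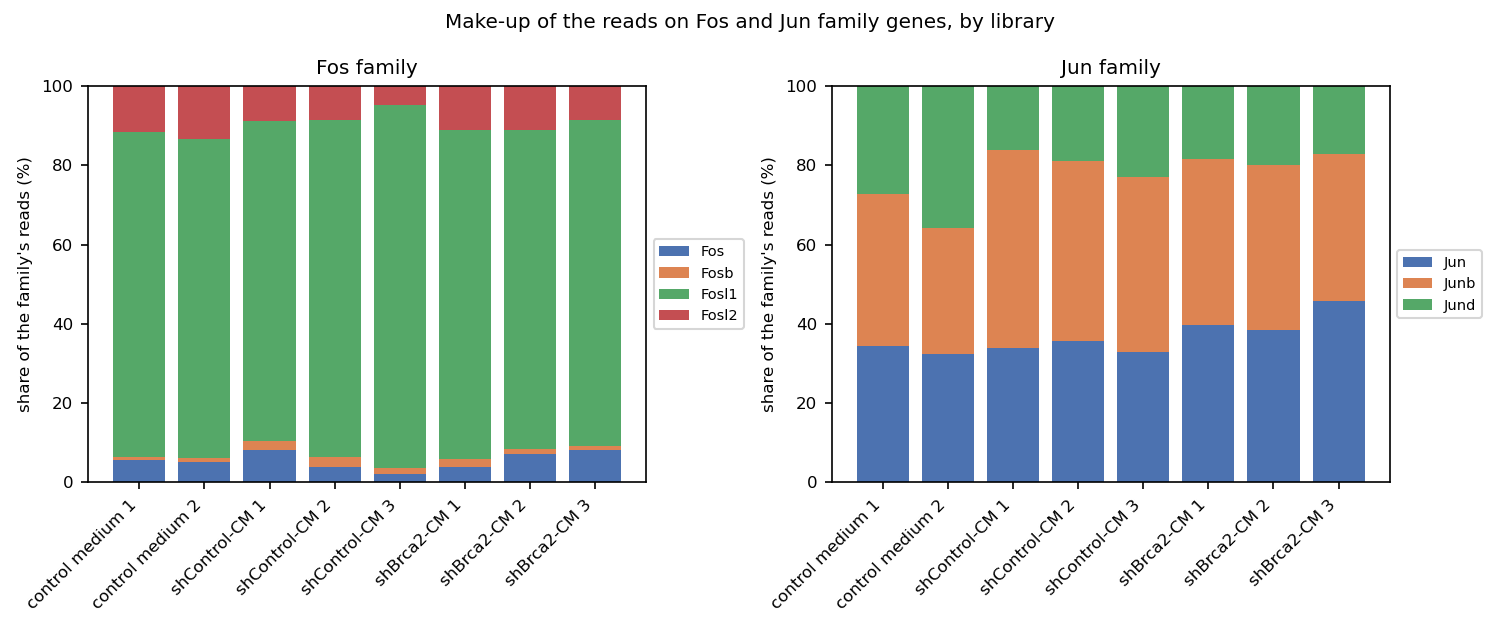
Share in percent of the reads on the 4 Fos genes and on the 3 Jun genes taken by each gene, 1 bar per library. Fosl1 takes 80.4% to 91.5% of the Fos family reads in every library, and Jund takes its largest shares in the 2 control libraries.

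The make-up of each family's reads, counted at 3′ ends and not scaled by length, was described by group without a test. Reads on the 4 Fos genes summed to 185 ± 5.66 CPM with control medium (SD, n = 2), 309 ± 26.5 CPM with shControl-CM and 192 ± 30.0 CPM with shBrca2-CM (SD, n = 3 each). The share of Fosl1 in them was 81.3% ± 0.85, 85.7% ± 5.4 and 81.9% ± 1.4, respectively, so the shares overlapped while the sums of the conditioned media did not. Reads on the 3 Jun genes summed to 398 ± 12.0 CPM with control medium (SD, n = 2), 699 ± 26.8 CPM with shControl-CM and 517 ± 22.7 CPM with shBrca2-CM (SD, n = 3 each). The share of Junb was 35.2% ± 4.7, 46.5% ± 3.1 and 40.2% ± 2.6, and that of Jun was 33.3% ± 1.4, 34.1% ± 1.4 and 41.3% ± 3.8. The share of Jund was 31.4% ± 6.2 with control medium, 19.4% ± 3.4 with shControl-CM and 18.5% ± 1.4 with shBrca2-CM, while its level in CPM was not called in any comparison.

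Atf3 (chr1:191170296-191183333), a stress-induced bZIP factor that can repress as well as activate, had the largest fall in log2 fold change among the called genes of the 10 between the conditioned media. It was at 30.8, 30.9 and 34.0 CPM with shControl-CM and at 14.5, 17.4 and 9.76 CPM with shBrca2-CM, the latter from 10 to 14 counts per library. It was at 12.7 and 15.7 CPM with control medium. All 3 shControl-CM libraries were above the other 5, and the shBrca2-CM and control libraries overlapped. Atf3 was 2.30-fold lower with shBrca2-CM than with shControl-CM (log2 fold change −1.20, SE 0.29, edgeR adjusted p = 0.0611) and 2.24-fold higher with shControl-CM than with control medium (log2 fold change 1.16, SE 0.26, edgeR adjusted p = 0.00717). Between shBrca2-CM and control medium the log2 fold change was −0.07, with a 95% interval of −0.70 to 0.56. The call between the conditioned media was lost with DESeq2 (adjusted p = 0.142) and without shControl-CM replicate 2 or any 1 of the 3 shBrca2-CM libraries (edgeR adjusted p = 0.174, 0.194, 0.128 and 0.27), with log2 fold changes of −1.40 to −0.95 over all 6 such fits. That against control medium was lost without control medium replicate 1 (edgeR adjusted p = 0.111).

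Egr1, on chromosome 18, was called only with shBrca2-CM against control medium. It was at 224, 236 and 227 CPM with shBrca2-CM, 244, 200 and 189 CPM with shControl-CM and 158 and 156 CPM with control medium. Every conditioned medium library was above both control libraries, and the conditioned media overlapped. Egr1 was 1.46-fold higher with shBrca2-CM than with control medium (log2 fold change 0.55, SE 0.15, edgeR adjusted p = 0.00173), a call lost with libraries thinned to the smallest total, where the log2 fold change was 0.48. With shControl-CM the log2 fold change was 0.42 (SE 0.17, edgeR adjusted p = 0.0791), under the fold threshold, and without shControl-CM replicate 3 it was 0.51 and called (edgeR adjusted p = 0.0251). Between the conditioned media the log2 fold change was 0.14, with a 95% interval of −0.16 to 0.45.

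**Figure D4:**
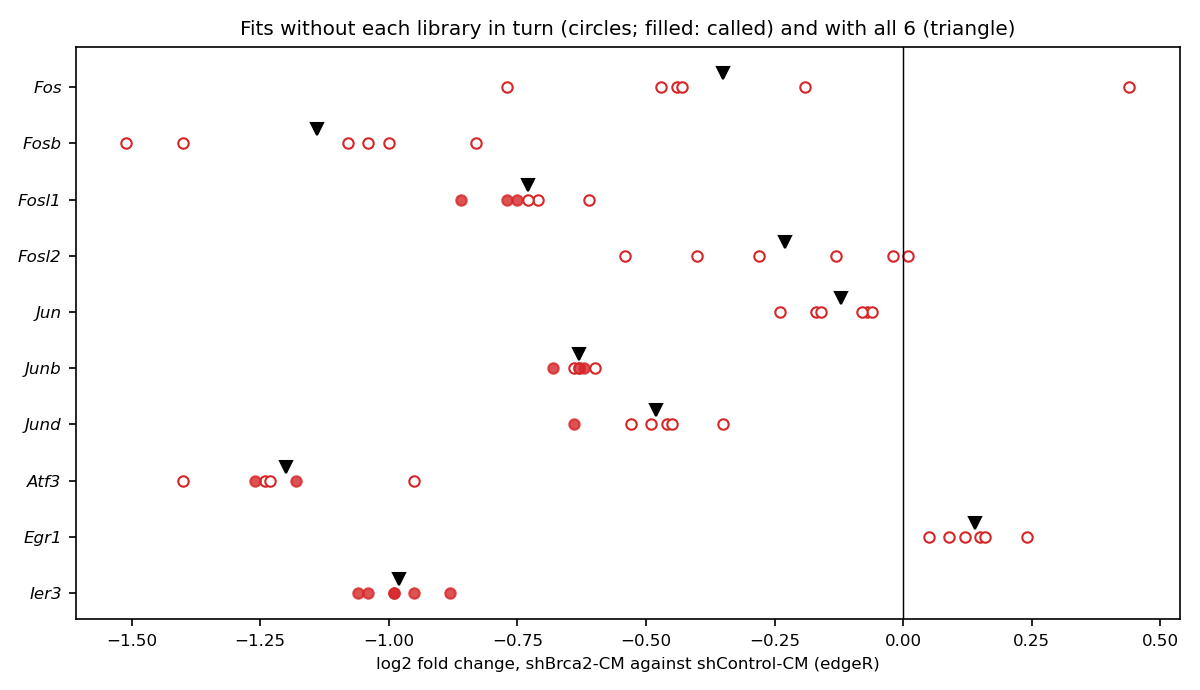
Log2 fold changes of the 10 genes between the conditioned media from edgeR with all 6 libraries (triangles) and without each library in turn (circles, filled where the gene was called). Ier3 is filled in all 6 fits, Fosl1 and Junb in 3 of 6, Atf3 in 2 of 6 and Jund in 1 of 6, and the circles of Fos run from below 0 to 0.44.

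Genes related to the 10 were taken from lists of names chosen with earlier results of these data known. The shares called in these lists are therefore not independent evidence. Of 11 tested bZIP partners of AP-1, such as Batf and Maf genes, none was called between the conditioned media by edgeR or DESeq2, and 2 had an unadjusted edgeR p under 0.05. Over all genes 3.13% were called, so a count of 0 in lists of this size is near the background. Against control medium, shControl-CM raised 3 of 12 (Batf, Batf3 and Mafk) and lowered 1, Maf, so 33.3% of the list was called against 37.1% of all genes. Without control medium replicate 1 or 2, these 4 calls became 2, 1 higher (Batf3) and 1 lower (Maf). Batf3 was at 50.6, 85.0 and 65.2 CPM with shControl-CM, 43.4, 57.2 and 70.1 CPM with shBrca2-CM and 29.5 and 25.6 CPM with control medium. All 6 conditioned medium libraries were above both control libraries, and Batf3 rose with shControl-CM (log2 fold change 1.26, SE 0.25, edgeR adjusted p = 0.00402) and with shBrca2-CM (log2 fold change 1.08, SE 0.20, edgeR adjusted p = 1.79e-05). Maf had 5 counts in the 3 shControl-CM libraries and 281 in the 2 control libraries, a ratio of 0.0455 with a counting interval of 0.0147 to 0.107, and 0.0295 without shControl-CM replicate 1. With shBrca2-CM, Batf3 rose and Maf and Mafa fell among the 12, or 25% of the list against 37.8% of all genes. Leaving out either control library lost the call of Batf with shControl-CM (edgeR adjusted p = 0.194 and 0.154) and that of Mafa with shBrca2-CM, which was also lost without shBrca2-CM replicate 1 or 2 (edgeR adjusted p = 0.296 and 0.229).

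Of 41 other immediate early genes, 2 rose and 4 fell with shBrca2-CM against shControl-CM, or 14.6% of the list against 3.13% of all genes. Their median log2 fold change of 0.08 was close to the 0.03 of all genes tested. Those that rose were Ccn2, a matricellular protein gene, and Klf4, a zinc finger factor gene. Ccn2 was at 27.5, 37.3 and 25.7 CPM with shBrca2-CM, 3.84, 7.73 and 7.47 CPM with shControl-CM and 108 and 119 CPM with control medium. The groups did not overlap, and Ccn2 was 4.86-fold higher with shBrca2-CM than with shControl-CM (log2 fold change 2.28, SE 0.36, edgeR adjusted p = 0.0047). Klf4 was 2.21-fold higher (log2 fold change 1.14, SE 0.20, edgeR adjusted p = 0.0105). Those that fell were Nr4a1, Id3, Ier2 and Gadd45b. Nr4a1, an orphan nuclear receptor gene, was at 240, 226 and 280 CPM with shControl-CM, 127, 122 and 158 CPM with shBrca2-CM and 79.9 and 69.2 CPM with control medium. The groups did not overlap, in the order seen for Junb and Ier3, and Nr4a1 was 1.79-fold lower with shBrca2-CM than with shControl-CM (log2 fold change −0.84, SE 0.15, edgeR adjusted p = 0.0109), a call lost without shBrca2-CM replicate 2 (edgeR adjusted p = 0.109). The count of called genes in this list was 3 without shBrca2-CM replicate 2 and 11 without shControl-CM replicate 1.

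Against control medium, the other immediate early genes were called in both directions. With shControl-CM, 8 of 41 rose and 14 fell (53.7% called, against 37.1% of all genes), at a median log2 fold change of −0.48 (−0.10 over all genes tested), and with shBrca2-CM, 8 rose and 17 fell (61% called, against 37.8% of all genes), at a median of −0.27 (−0.05 over all genes tested). The balance of rises and falls was not tested. Over all genes, 18.2% rose and 18.9% fell with shControl-CM, and 18.6% rose and 19.2% fell with shBrca2-CM. Genes that rose with shControl-CM included Nr4a1, Nr4a2, Nr4a3, Ier2, Csrnp1 and Pim1, and genes that fell included Myc, Klf2, Klf10, Id1, Id2, Id3, Hes1 and Ccn1. Id2, an inhibitor of basic helix-loop-helix factors, fell from 176 and 131 CPM with control medium to 19.2, 17.4 and 8.83 CPM with shControl-CM and 24.6, 16.2 and 18.6 CPM with shBrca2-CM. The control libraries were above all others, and Id2 was 10.2-fold lower with shControl-CM (log2 fold change −3.36, SE 0.28, edgeR adjusted p = 3.02e-05) and 7.86-fold lower with shBrca2-CM (log2 fold change −2.97, SE 0.21, edgeR adjusted p = 2.13e-18). Ccn2 was 18.3-fold lower with shControl-CM than with control medium (log2 fold change −4.20, SE 0.27, edgeR adjusted p = 4.34e-06). Id3, of the same family as Id2, was 6.80-fold lower with shBrca2-CM than with control medium (log2 fold change −2.76, SE 0.15, edgeR adjusted p = 8.31e-24). Zfp36l2, an mRNA decay factor gene, had 3 counts in the 3 shControl-CM libraries and 61 in the 2 control libraries, a ratio of 0.126 with a counting interval of 0.0252 to 0.385. The ratio was 0.0562 without shControl-CM replicate 2 and 0.197 without shControl-CM replicate 3, and the call of Zfp36l2 was lost without either control library. Btg1, an antiproliferative gene, had 3 to 11 counts per library and was higher with shBrca2-CM than with control medium (log2 fold change 2.16, SE 0.62, edgeR adjusted p = 0.004), a call lost with thinned libraries (edgeR adjusted p = 0.176). Its log2 fold change was 3.12 without control medium replicate 1 and 1.65 without control medium replicate 2.

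Genes whose products act upstream of AP-1, namely MAP kinases, their downstream kinases, and serum response factor with its partners, were not called between the conditioned media (0 of 25 by edgeR or DESeq2, against 3.13% of all genes, median log2 fold change −0.06). The unadjusted edgeR p was under 0.05 for 4 of the 25, against 13.4% of all genes. Without shControl-CM replicate 1, 3 of this list were called, and without shControl-CM replicate 3, 2 were called. Against control medium, 9 of 25 rose and 3 fell with shControl-CM, and 7 rose and 3 fell with shBrca2-CM. These are 48% and 40% of the list, against 37.1% and 37.8% of all genes. The 12 calls with shControl-CM became 7 with DESeq2, 7 without shControl-CM replicate 2, and 2 at an adjusted p under 0.05 and a log2 fold change above 1 in size. They were also fewer without either control library. Mapk13, which encodes p38 delta, was at 55.7, 52.2 and 64.5 CPM with shControl-CM, 43.4, 51.0 and 50.6 CPM with shBrca2-CM and 22.9 and 21.1 CPM with control medium. The conditioned medium libraries were all above the control libraries, with log2 fold changes of 1.38 with shControl-CM (SE 0.21, edgeR adjusted p = 0.00121) and 1.14 with shBrca2-CM (SE 0.21, edgeR adjusted p = 1.25e-05). Mapk12 and Mapk11, which encode p38 gamma and p38 beta, rose with shBrca2-CM (log2 fold changes 1.71 and 1.62, SE 0.36 and 0.45, edgeR adjusted p = 8.05e-05 and 0.0029). With shControl-CM, Mapk11 rose (log2 fold change 1.33, SE 0.51, edgeR adjusted p = 0.0688) and Rps6ka3, which encodes the kinase RSK2, fell (log2 fold change −1.61, SE 0.60, edgeR adjusted p = 0.0627). Mapk11 overlapped, at 10.9, 2.9 and 8.83 CPM with shControl-CM and 2.43 and 3.87 CPM with control medium. Rps6ka3 had 8, 0 and 4 counts with shControl-CM and 61 and 33 with control medium. Both calls were lost with DESeq2 (adjusted p = 0.231 and 0.157) and without either control library, that of Mapk11 also without shControl-CM replicate 1 and that of Rps6ka3 without shControl-CM replicate 2. Without shControl-CM replicate 1 the log2 fold change of Rps6ka3 was −2.47. Of 6 genes for cofactors and turnover of Jun, Fos and Egr1, none was called between the conditioned media by edgeR or DESeq2 or had an unadjusted edgeR p under 0.05, and 1 was called against control medium with either conditioned medium, or 16.7% of the list against 37.1% and 37.8% of all genes. Nab2, which encodes a corepressor of EGR1, was lower than with control medium with shControl-CM (log2 fold change −0.80, SE 0.23, edgeR adjusted p = 0.0242) and with shBrca2-CM (log2 fold change −0.99, SE 0.16, edgeR adjusted p = 1.44e-06). Its call with shControl-CM was lost without control medium replicate 2 (edgeR adjusted p = 0.243), and 2 of the 6 genes were called lower with shControl-CM without shControl-CM replicate 1.

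**Figure D5:**
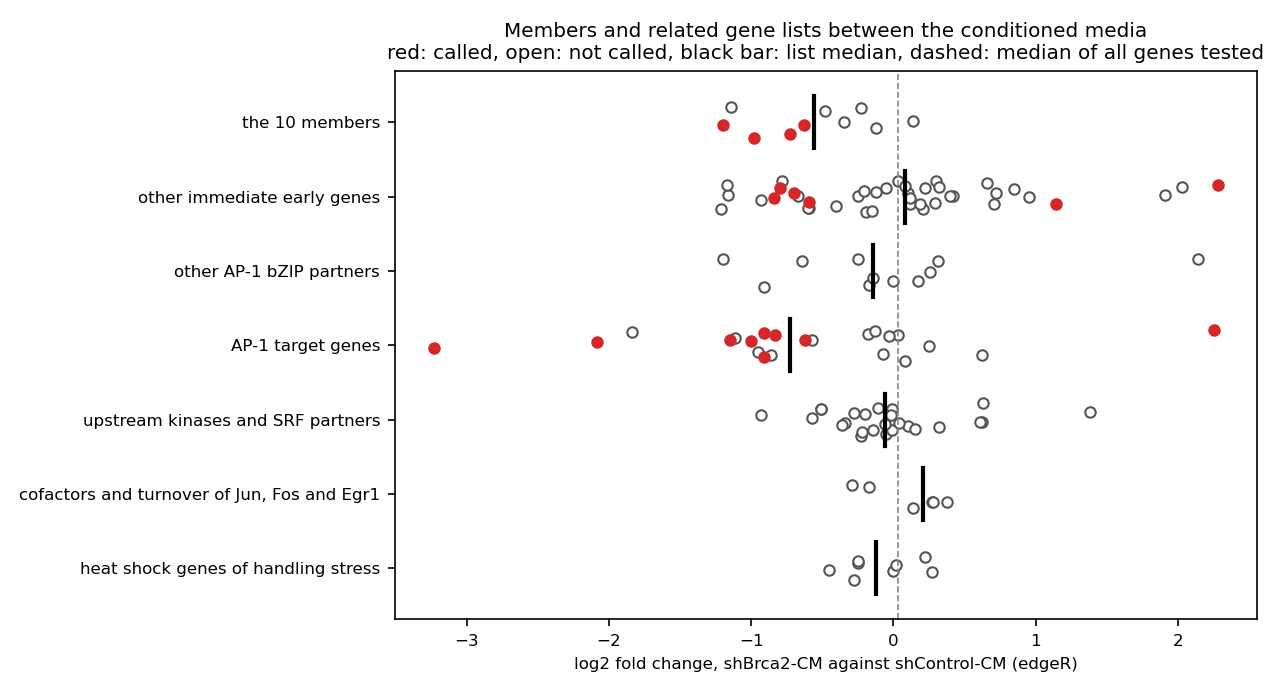
Log2 fold changes of shBrca2-CM against shControl-CM from edgeR for the 10 genes and 6 related lists, 1 point per gene (filled red where called), with a black bar for the list median and a dashed line for the median of all genes tested, 0.03. The median of the 10 genes (−0.55) and of the AP-1 target genes (−0.72) lie left of the dashed line.

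Among 22 genes known as AP-1 targets, 8 fell and 1 rose with shBrca2-CM against shControl-CM, a share of 40.9% called against the 3.13% of all genes. Their median log2 fold change was −0.72. The list was written with earlier results on several of its genes known, so its direction is not independent evidence. Those that fell were Il11, Lif, Mt2, Timp1, Hmox1, Mt1, Tgfb1 and Mmp3. The cytokine genes Il11 and Lif fell 9.36-fold and 4.21-fold (edgeR adjusted p = 1.05e-05 and 0.000589). Timp1, an inhibitor of matrix metalloproteinases, fell on average from 2090 CPM with shControl-CM to 1020 CPM with shBrca2-CM (2.01-fold lower, edgeR adjusted p = 0.0023). Hmox1, which encodes heme oxygenase 1, fell from 358 to 186 CPM (log2 fold change −0.91, SE 0.17, edgeR adjusted p = 0.0142), and Tgfb1 fell from 104 to 56.9 CPM (log2 fold change −0.83, SE 0.17, edgeR adjusted p = 0.0273). Ccnd1, the gene of cyclin D1, rose with shBrca2-CM, at 70.9, 82.1 and 51.5 CPM against 13.5, 18.4 and 12.2 CPM with shControl-CM, and was at 164 and 201 CPM with control medium. The groups did not overlap, and Ccnd1 was 4.74-fold higher with shBrca2-CM than with shControl-CM (log2 fold change 2.25, SE 0.26, edgeR adjusted p = 0.000701). Leaving out each library in turn gave 6 to 12 called genes in this list.

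Against control medium, 14 of the 22 targets rose and 3 fell with shControl-CM (77.3% called, against 37.1% of all genes), and 11 rose and 3 fell with shBrca2-CM (63.6% called, against 37.8% of all genes). The medians were 1.06 and 0.62, against −0.10 and −0.05 over all genes tested. Mmp3, which encodes stromelysin 1, was at 1510, 1160 and 1140 CPM with shControl-CM, 699, 754 and 985 CPM with shBrca2-CM and 18.6 and 8.81 CPM with control medium. The groups did not overlap, and Mmp3 was 58.2-fold higher with shBrca2-CM than with control medium (log2 fold change 5.86, SE 0.21, edgeR adjusted p = 1.13e-32). The log2 fold change was 6.52 without control medium replicate 1 and 5.46 without control medium replicate 2. Mmp13, which encodes collagenase 3, had 3 counts in the control libraries together. It was at 173, 72.5 and 42.1 CPM with shControl-CM and 43.4, 53.5 and 50.6 CPM with shBrca2-CM, and the conditioned media overlapped. The ratio of its pooled counts to control medium was 347 with shControl-CM (counting interval 118 to 1690), which was 190 without shControl-CM replicate 1, and 172 with shBrca2-CM (57.6 to 845). Il6 had 2 counts in the control libraries together and 99 with shControl-CM, a ratio of 127 with a counting interval of 34.1 to 1060, which was 72.6 without shControl-CM replicate 1. With shBrca2-CM its ratio was 33.7 (8.01 to 301), and its call was lost with thinned libraries. Mmp10 had no count with control medium and 18 counts with shControl-CM, at least 6.35-fold higher, computed from group mean CPM against the highest floor of 3 counts in a control library. Without shControl-CM replicate 3 this bound was 3.73-fold, from 7 counts. Of 8 heat shock genes, which can rise when cells are handled, none was called between the conditioned media by edgeR or DESeq2, against 3.13% of all genes, 1 had an unadjusted edgeR p under 0.05, and 1 was called without shControl-CM replicate 1. Against control medium, 1 rose and 4 fell with shControl-CM (62.5% called, against 37.1% of all genes), and 1 rose and 5 fell with shBrca2-CM (75% called, against 37.8% of all genes). Hspa1b fell with shControl-CM (log2 fold change −1.95, SE 0.22, edgeR adjusted p = 0.000177) and with shBrca2-CM (log2 fold change −1.69, SE 0.17, edgeR adjusted p = 9.83e-13). Hsph1 rose with shControl-CM (log2 fold change 1.31, SE 0.18, edgeR adjusted p = 0.000531) and with shBrca2-CM (log2 fold change 0.85, SE 0.17, edgeR adjusted p = 2.74e-05). Hspe1 fell with shBrca2-CM (log2 fold change −1.03, SE 0.15, edgeR adjusted p = 5.16e-08). Hsp90aa1 fell with shControl-CM (log2 fold change −0.84, SE 0.26, edgeR adjusted p = 0.0317), a call lost without shControl-CM replicate 2 or control medium replicate 2 (edgeR adjusted p = 0.108 and 0.279).

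Ier3 had the smallest p of the 10 genes both between the conditioned media and with shControl-CM against control medium. Among 7916 genes with a mean of at least 10 CPM, those whose log2 CPM was most like that of Ier3 over the 8 libraries were Hp (Pearson's r = 0.9986), Lcn2 (r = 0.9965) and Angptl4 (r = 0.9954). The 8 points fall into 3 groups of libraries that also differ in depth, so these values describe a shared order of the media. Hp, which encodes haptoglobin, was at 83.6 and 58.5 CPM with control medium, 3460, 2800 and 4140 CPM with shBrca2-CM and 17100, 18900 and 18400 CPM with shControl-CM. Angptl4, which encodes a lipase inhibitor, was at 22.2 and 23.2 CPM, 148, 139 and 173 CPM, and 279, 295 and 329 CPM, respectively. In both genes, as in Ier3, the groups did not overlap and shBrca2-CM lay between control medium and shControl-CM.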

How the data were processed

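The RNA of mouse PSCs was measured in 8 MARS-seq libraries of 3 groups, assigned from the sample titles. The authors deposited raw read counts for each gene, not normalized, with replicates kept apart. Per the labels' processing notes, bcl2fastq, cutadapt, STAR 2.4.2a, HTSeq, DESeq2 and the mm10 build were used. The annotation, strand setting, treatment of molecular identifiers and rule by which genes were kept are not given in the sources used here. Reads shared by overlapping genes therefore could not be told apart. The table holds 1 per-sample column that is named like the control medium libraries but matched no sample of the labels, and it was not used.

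Counts were analysed in R 4.3.3 with edgeR 4.0.16. Only the 2 groups compared entered each fit, with TMM scaling, genes with at least 10 counts over the libraries fitted, the quasi-likelihood test and Benjamini-Hochberg adjustment over all genes tested. Thresholds followed the study's methods, namely adjusted p under 0.1, log2 fold change above 0.5 in size and mean normalized count above 5. The script was tested on simulated data. Named beside the 10 genes were, of each list and comparison, the 3 called genes with the largest absolute log2 fold change, and the 3 genes most like the gene with the smallest p. Other genes given as members of a count, and Timp1, Hmox1, Tgfb1, Krt19 and Vim with their values, were chosen after their values were seen. The 10 genes and the lists were chosen with earlier results of these data known. Whether the replicate numbers of the labels pair the libraries could not be settled, and no block was used in the main fits. No 2 libraries of a group differed by less than sampling noise (chi-square per degree of freedom 1.65 to 8.35). The likelihood ratio test of DESeq2 1.42.0 was tried as an alternative, as were other scalings, filters and thresholds, 1 fit of all 3 groups, thinned libraries, a replicate block and each library left out in turn. The pooled ratios of genes with a group at or under 3 counts were recomputed without each library, an alternative chosen after seeing the data.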

Additional observations from a re-analysis of the deposited data

How the results depend on the processing

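Counting limits the results most with shBrca2-CM, which holds the 2 smallest libraries, and Fos, Fosb, Fosl2 and Atf3 rest on few counts. Ier3 kept its direction and its call in every fit of all 3 comparisons, but its log2 fold change of −0.98 between the conditioned media missed the stricter threshold of 1. At an adjusted p under 0.05 and a log2 fold change above 1 in size, 130 genes were called between the conditioned media, 2375 with shControl-CM and 2185 with shBrca2-CM against control medium, with 0, 4 and 1 of the 10 genes among them. Thinned to the smallest total, shControl-CM against control medium called 2893 genes, and shBrca2-CM against control medium called 2 of the 10 genes.

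Leaving out each library in turn gave 128 to 976 called genes between the conditioned media, 1901 to 5157 with shControl-CM and 3903 to 4510 with shBrca2-CM against control medium, and 1 to 5, 4 to 8 and 3 to 5 of the 10 genes. The 976 came without shControl-CM replicate 1, and 175, 128 and 160 came without shBrca2-CM replicates 1, 2 and 3 and 169 without shControl-CM replicate 2. Against control medium, shControl-CM called 1901 and 2269 genes without control medium replicates 1 and 2. Where 1 control library remained, it was assumed to vary like the other group. The cause of these changes was not tested.

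The replicate numbers were not treated as pairing the libraries. Same-numbered libraries of the conditioned media had correlations of −0.04, 0.03 and 0.14 in their deviations from the group means. Not every library correlated best with its own number. With so few libraries per group, these values cannot settle whether the libraries were paired. A replicate block called 311 genes between the conditioned media, 4512 with shControl-CM and 3850 with shBrca2-CM against control medium, and 3, 7 and 4 of the 10 genes. Under the block, Atf3 was not called between the conditioned media (log2 fold change −1.21, edgeR adjusted p = 0.1) and Fos was called with shControl-CM against control medium (1.02, edgeR adjusted p = 0.00988). No other call of the 10 genes changed with the block.

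Values that changed sign were all of genes that were not called in that comparison. Between the conditioned media, Fosl2 was at 0.01 without shBrca2-CM replicate 3 and Fos at 0.44 without shControl-CM replicate 1 (ranges over the 6 fits, −0.54 to 0.01 and −0.77 to 0.44). With shControl-CM against control medium, Fosl2 was at −0.09 with total counts, −0.23 and −0.09 without shControl-CM replicates 1 and 2 and −0.09 without control medium replicate 1 (−0.23 to 0.31 over the 5 fits). Fos was at −0.17 without shControl-CM replicate 1 (−0.17 to 1.07). Jund was at −0.01 with total counts, −0.01 with the block, −0.03 without shControl-CM replicate 3 and −0.09 without control medium replicate 1 (−0.09 to 0.35). With shBrca2-CM against control medium, thinning gave −0.09 for Fosl1, 0.19 for Fosl2 and 0.08 for Atf3. Fosl1 was at −0.07 without shBrca2-CM replicate 1, and Atf3 was at 0.17 with the block, 0.18 without shBrca2-CM replicate 3 and 0.09 without control medium replicate 2 (−0.27 to 0.18).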
